A study of Mus musculus with 20 samples.

Results

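The 10 genes described here, Cldn5, Ocln, Pecam1, Slc2a1, Slco1a4, Slco1c1, Mfsd2a, Abcb1a, Flt1 and Tek, are active in the endothelial cells that form the blood-brain barrier. They were chosen by name, as the rows of the deposited gene map that carry these symbols, and are 10 of the 48709 genes counted. All 10 passed the filter on low counts and were tested in every comparison. None of them passed the threshold of p under 0.005 between nPM and control mice. With both sexes, 0.141% of all genes tested did. At the same threshold 6 of the 10 were lower in males than in females, beside 17.1% of all genes tested. Slco1c1 and Ocln followed the amount of choroid plexus RNA in each sample more closely than they followed the other 8 genes.

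RNA of the whole hippocampus was sequenced from 20 young adult C57BL/6 mice (C57BL/6J in the study's methods), with 5 samples in each of 4 groups: females and males of control dams, called control females and control males, and females and males of exposed dams, called nPM females and nPM males. nPM is nano-sized particulate matter of urban air. The dams of the nPM groups inhaled it from gestational day 2 of their pregnancy, at 300 μg per m3 by the study's methods (the labels write mg), for 5 h a day on 3 days a week. The dams of the control groups inhaled filtered air in parallel, and the labels name no transgene or deletion in any group. The females were 17.71 to 18.29 weeks old and the males 18.57 to 19.14 weeks, so that sex and age cannot be told apart. The methods describe injections of EdU, a label of dividing cells, in males and add that every animal received it, and whether the females sequenced here were injected is not clear from them. The labels do not say which samples came from the same litter, so that p-values measure the spread between these samples. Littermates within an exposure group would make the p-values of nPM against control too small. Between the sexes, littermates can lie on both sides, and their effect on those p-values was not tested. Total counts per sample were between 19092067 and 38663408. The library of nPM female 4 had the fewest counts and the highest share of mitochondrial counts (15.7%, against 11.1 to 15.2% in the other 19). The summed level of 8 neuron markers was 4737 to 8013 CPM (counts per 1000000, scaled by TMM factors) and that of 8 choroid plexus markers was 254 to 13470 CPM. In tissue RNA, fewer endothelial cells and less RNA per cell cannot be told apart.

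Endothelial cells of brain capillaries are sealed to each other by tight junctions, so that most solutes cross only through transport proteins in the cell membrane. Pumps return foreign lipophilic molecules to the blood, and vesicle transport through the cell is kept low. The barrier is induced by Wnt ligands from the neural tissue and maintained together with pericytes and the end feet of astrocytes. The epithelium of the choroid plexus, which secretes cerebrospinal fluid, forms a second barrier and shares some of its transporters and junction proteins with the endothelium.

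Positions are those of the deposited gene map (mm10), and each span covers the exons and introns of the gene. Cldn5 (ENSMUSG00000041378.1, chr16:18776847-18778260, plus strand) encodes claudin-5, the main claudin of the endothelial tight junction, and Ocln (ENSMUSG00000021638.12, chr13:100496507-100552718, minus strand) encodes occludin, another membrane protein of tight junctions. Pecam1 (ENSMUSG00000020717.19, chr11:106654217-106750628, minus strand) encodes the adhesion protein CD31 of endothelial and some blood cells. Slc2a1 (ENSMUSG00000028645.11, chr4:119108711-119137983, plus strand) encodes the glucose transporter GLUT1. Slco1a4 (ENSMUSG00000030237.14, chr6:141805440-141856199, minus strand) and Slco1c1 (ENSMUSG00000030235.17, chr6:141524368-141570177, plus strand) encode organic anion transporters, of which Slco1c1 carries thyroxine. Mfsd2a (ENSMUSG00000028655.11, chr4:122946850-122961188, minus strand) encodes the carrier of lysophosphatidylcholine with docosahexaenoic acid, which also keeps vesicle transport low. Abcb1a (ENSMUSG00000040584.8, chr5:8660077-8748575, plus strand) encodes P-glycoprotein, the main efflux pump. Flt1 (ENSMUSG00000029648.13, chr5:147561604-147726011, minus strand) encodes VEGF receptor 1, and Tek (ENSMUSG00000006386.15, chr4:94739289-94874976, plus strand) encodes TIE2, the receptor of the angiopoietins. The span of Abcb1a holds 2 other genes of the map and that of Slc2a1 holds 3, while the other 8 spans hold none. No strand setting of the counting is stated, so that reads of Abcb1a and Slc2a1 cannot be told apart from those of genes that overlap their exons. Reads of Abcb1a and Slco1a4 can also match their close relatives, such as Abcb1b and other Slco1a genes.

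The 250 bases before the start of a gene are shown for Slco1c1 and Ocln, whose levels moved together across the samples, and for Flt1 and Tek, whose levels moved together apart from the first pair. They were taken from RefSeq on GRCm38.p6, in which 9 of the 10 genes had an entry, and are written 5′ to 3′ on the strand of the gene. They lie at chr6:141524104-141524353 (Slco1c1, plus strand), chr13:100552719-100552968 (Ocln, minus strand), chr5:147726012-147726261 (Flt1, minus strand) and chr4:94739039-94739288 (Tek, plus strand). Capitals mark a GC box (GGGCGG, or CCGCCC on the other strand) or a CCAAT box (CCAAT, or ATTGG on the other strand), and the 2 motifs did not overlap.
Slco1c1: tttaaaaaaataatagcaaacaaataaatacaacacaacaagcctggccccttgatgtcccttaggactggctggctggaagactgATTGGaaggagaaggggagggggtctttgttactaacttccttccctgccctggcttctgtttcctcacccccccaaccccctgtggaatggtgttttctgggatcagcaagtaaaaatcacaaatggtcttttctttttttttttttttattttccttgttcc
Ocln: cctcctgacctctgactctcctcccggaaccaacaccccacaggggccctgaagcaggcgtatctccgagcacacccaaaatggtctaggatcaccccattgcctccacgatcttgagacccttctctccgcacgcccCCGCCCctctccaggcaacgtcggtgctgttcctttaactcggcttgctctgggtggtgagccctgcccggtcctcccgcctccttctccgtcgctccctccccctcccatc
Flt1: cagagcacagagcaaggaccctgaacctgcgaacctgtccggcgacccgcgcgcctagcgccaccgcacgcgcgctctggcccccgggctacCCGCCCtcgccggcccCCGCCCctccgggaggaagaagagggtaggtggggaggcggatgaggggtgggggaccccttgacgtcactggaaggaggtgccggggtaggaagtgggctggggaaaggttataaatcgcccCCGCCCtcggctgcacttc
Tek: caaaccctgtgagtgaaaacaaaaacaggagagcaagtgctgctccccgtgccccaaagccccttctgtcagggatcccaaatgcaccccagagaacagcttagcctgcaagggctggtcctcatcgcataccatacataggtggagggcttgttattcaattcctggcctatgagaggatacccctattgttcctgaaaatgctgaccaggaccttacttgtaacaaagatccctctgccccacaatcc
The sequence of Flt1 had 70.4% G and C with 23 CpG dinucleotides and that of Ocln 64.0% with 14, against a median of 52.4% G and C over 32851 RefSeq sequences of this length. That of Tek had 51.2% with 2 CpG, and that of Slco1c1 had 42.8% with 0. Within each of these 2 pairs the base composition thus differed. This holds for these pairs only: Slc2a1, which moved with Ocln in males, had 66.4% G and C with 13 CpG. A GC box was found in 4 of the 9 genes (Cldn5, Flt1, Slc2a1 and Ocln), and in 32.7% of all sequences. A CCAAT box was found in 5 (Cldn5, Slco1a4, Slco1c1, Mfsd2a and, before another start of the gene, Ocln), and in 33.8% of all. The letters CCGGAAG of ETS factors, CTTTGAT of TCF/LEF factors and the E-box CACGTG were searched on both strands and found in 0 of the 9, against 6.91%, 3.21% and 6.02% of all sequences. For Abcb1a, 1 of the 9, the RefSeq start lay 92986 bases before the start in the gene map.

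Per length, the transporters Slc2a1, Slco1c1, Slco1a4 and Mfsd2a had the highest means, while the pump Abcb1a came after Cldn5. The mean over the 20 samples was 15.2 ± 3.56 RPKM (counts per kilobase of exons and per 1000000 counts, TMM-scaled, SD) for Slc2a1, 12.1 ± 4.94 for Slco1c1, 9.51 ± 1.43 for Slco1a4 and 7.47 ± 2.11 for Mfsd2a. Cldn5 followed at 7.10 ± 1.53 RPKM, Abcb1a at 5.83 ± 1.17 and Ocln at 4.63 ± 1.59. The receptors and the adhesion protein were lowest, with Flt1 at 2.84 ± 0.77 RPKM, Tek at 2.03 ± 0.36 and Pecam1 at 1.98 ± 0.31. Of the 9 steps between neighbours in this order, the mean log2 difference exceeded its SD over samples in 2, those from Ocln to Flt1 (0.68 ± 0.62) and from Flt1 to Tek (0.46 ± 0.30), each with the same sign in 18 of 20 samples. In the other steps the mean difference was smaller than its SD. Even so, Slco1a4 lay above Mfsd2a in 18 of 20 samples (0.38 ± 0.41) and Cldn5 above Abcb1a in 16 of 20 (0.28 ± 0.33). No test was run on these steps. Slco1c1 varied most, 3.51-fold between its lowest and its highest sample, and Tek (1.80-fold), Slco1a4 (1.81-fold) and Pecam1 (1.84-fold) varied least. The smallest count behind any of these values was 125, for Cldn5 in nPM female 4.

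**Figure D1:**
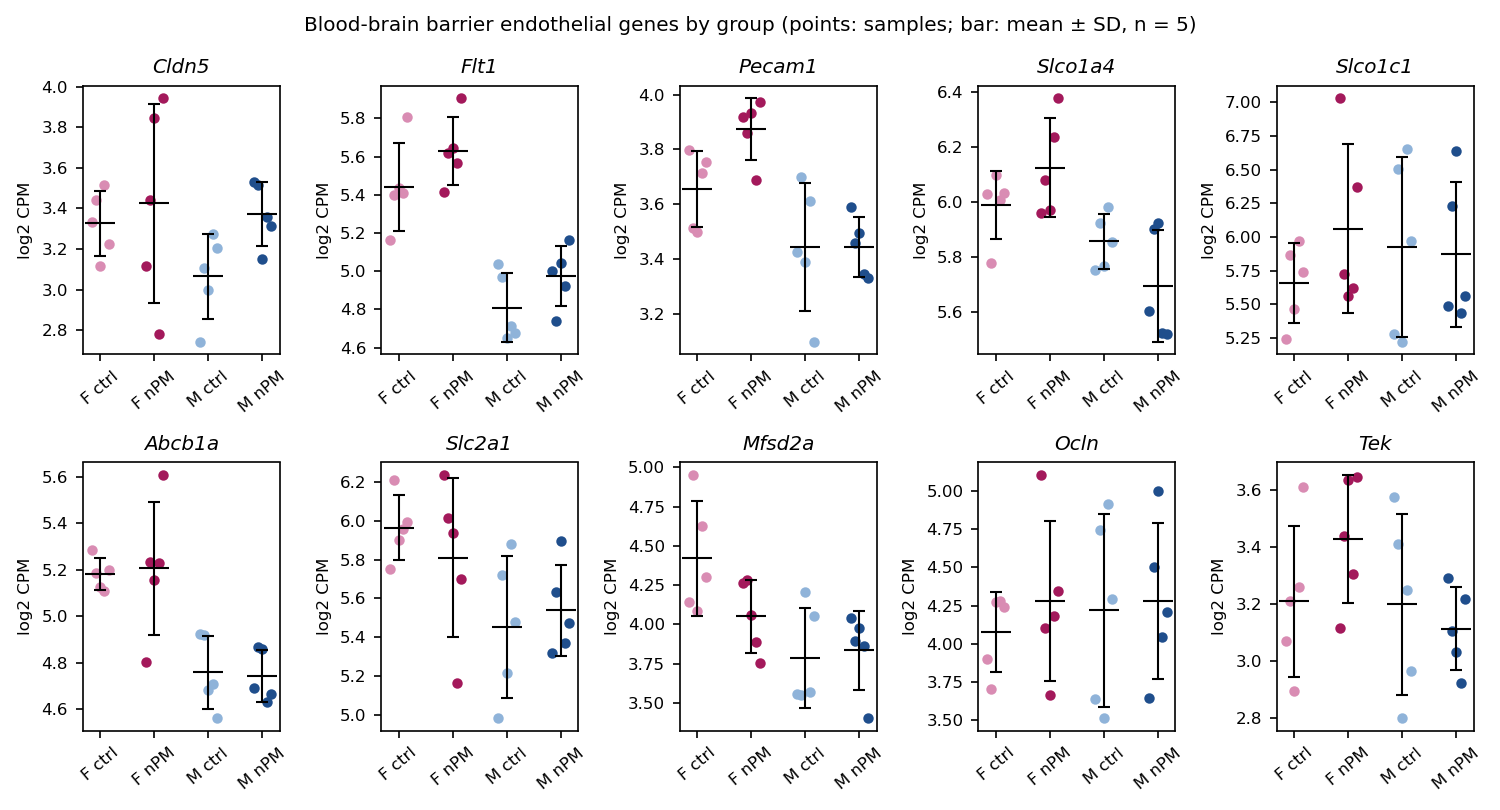
Level of each of the 10 genes (log2 CPM on the y axis, with its own range for each gene) in control (ctrl) and nPM females (F) and males (M); points are samples and bars are the mean ± SD of 5 samples. Flt1 and Abcb1a lie lower in both male groups, while the groups overlap widely for Slco1c1 and Ocln.

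The first comparison asked whether gestational nPM changed these genes in the adult offspring. With both sexes and sex as a covariate, 0 of the 10 genes passed p under 0.005 in limma-voom, against 0.141% of the 19797 genes tested. At p under 0.05 1 of the 10 passed, against 2.1% of all genes. The median log2 change over the 10 was 0.095 (7 higher after nPM, 3 lower), beside -0.0059 over all genes. In females 0 of 10 passed p under 0.005 (background 0.0909%) and 1 passed p under 0.05 (background 1.99%), with a median of 0.18 over the 10 and 0.0038 over all genes. In males 0 of 10 passed p under 0.005 (background 0.207%) and 1 passed p under 0.05 (background 4.28%), with a median of 0.011 over the 10 and -0.0013 over all genes. With edgeR and DESeq2 the count at p under 0.005 was 0 of 10 in each of these comparisons too. At p under 0.05 these tools gave 1 gene each in both sexes and in males, and 2 (Pecam1 and Mfsd2a) and 3 (with Slco1c1) in females. The shares of all genes at p under 0.05 with these tools are not given here. At p under 0.005 in females, edgeR passed 0.121% and DESeq2 0.414% of all genes, against 0.0909% in limma-voom. The 2 and 3 are thus not to be read against the shares of limma-voom.

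Flt1 was the gene that passed p under 0.05 with both sexes. Flt1 was measured at 35.9, 42.2, 42.4, 43.2 and 55.9 CPM in the control females and at 42.6, 47.4, 49.2, 50.1 and 59.95 CPM in the nPM females. The male controls were at 25.1, 25.5, 26.3, 31.3 and 32.8 CPM and the nPM males at 26.7, 30.3, 32.0, 32.9 and 35.8 CPM. Its samples overlapped between nPM and control in each sex. The log2 change was 0.18 (SE 0.079, 95% confidence interval 0.020 to 0.35, p = 0.029, adjusted p = 0.9998), a 1.14-fold higher level after nPM, and the exact permutation test within sex gave p = 0.047. The change was 0.21 in females and 0.17 in males. The p of Flt1 rose above 0.05 without control female 1, control male 3, control male 5, nPM female 5 or nPM male 5, with a range of 0.0057 to 0.069 over the 20 fits that left out a sample. Kdr, the VEGF receptor 2, changed by 0.27 in the same comparison (SE 0.12) and passed p under 0.05 too (adjusted p = 0.9998).

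Tek, the other receptor, averaged 9.36 ± 1.79 CPM in the control females and 10.9 ± 1.66 CPM in the nPM females, and 9.35 ± 2.02 and 8.68 ± 0.88 CPM in the males of these groups (SD, n = 5 each). Its log2 change was 0.26 in females (SE 0.15) and -0.079 in males (SE 0.14), with exact permutation p of 0.20 and 0.58.

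Cldn5 was the gene that passed p under 0.05 in males. Cldn5 was measured at 8.67, 9.34, 10.1, 10.9 and 11.4 CPM in the control females and at 6.84, 8.66, 10.8, 14.3 and 15.4 CPM in the nPM females. Control males had 6.68, 7.98, 8.61, 9.22 and 9.67 CPM and nPM males 8.86, 9.92, 10.2, 11.4 and 11.6 CPM. In males 4 of the 5 nPM samples lay above the highest control, while the 5 nPM females spread over more than the range of the controls on both sides. The log2 change in males was 0.29 (SE 0.12, 95% confidence interval 0.033 to 0.55, p = 0.030, adjusted p = 0.96), a 1.22-fold higher level, with an exact permutation p of 0.032. In females it was 0.15 (SE 0.20, exact permutation p = 0.72), and the male and female changes differed by 0.16 (SE 0.24, adjusted p of the interaction 0.99). The p in males rose above 0.05 without control male 1, 2 or 3 or nPM male 1 or 2 (highest 0.082), and was 0.097 in 1 fit of all 4 groups and 0.054 with the replicate number as a block. Occludin, the other junction protein, is given with the choroid plexus markers that it followed.

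Pecam1 was the gene that passed p under 0.05 in females. Pecam1 was measured at 11.3, 11.4, 13.1, 13.5 and 13.9 CPM in the control females and at 12.9, 14.5, 15.1, 15.3 and 15.7 CPM in the nPM females. For males the values were 8.55, 10.4, 10.7, 12.2 and 13.0 CPM in controls and 10.04, 10.1, 10.99, 11.3 and 12.03 CPM after nPM. In females 4 of the 5 nPM samples lay above the highest control. The log2 change in females was 0.25 (SE 0.099, 95% confidence interval 0.032 to 0.46, p = 0.028, adjusted p = 0.9999), a 1.19-fold higher level, with an exact permutation p of 0.040. In males it was 0.0052 (SE 0.12). The p in females rose above 0.05 without control female 2 or 3 or nPM female 1, 2, 3 or 5 (highest 0.078), and was 0.061 with the replicate number as a block.

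Among the transporters, Slco1a4 had the largest ratio of the sex difference in the nPM change to its error. Slco1a4 was measured at 54.8, 64.3, 65.2, 65.4 and 68.4 CPM in the control females and at 62.2, 62.6, 67.5, 75.3 and 83.0 CPM in the nPM females. In the males it was at 53.9, 54.5, 57.8, 60.7 and 63.2 CPM in controls and at 45.9, 46.0, 48.6, 59.8 and 60.7 CPM after nPM. In males 3 of the 5 nPM samples lay below the lowest control, and in females 2 of the 5 nPM samples lay above the highest control. The log2 change was 0.15 in females (SE 0.096) and -0.17 in males (SE 0.094), with exact permutation p of 0.23 and 0.13. The difference between them, male minus female, was -0.30 (SE 0.14, 95% confidence interval -0.58 to -0.013, adjusted p = 0.99). For the interaction 0 of 10 genes passed p under 0.005 (background 0.217%) and Slco1a4 alone passed p under 0.05 (background 3.79%). With edgeR and DESeq2 these counts were 0 and 1 too, and with the replicate number as a block both were 0 (limma-voom, 0.056 for Slco1a4 before adjustment). The median interaction over the 10 genes was -0.11, beside 0.013 over all genes. The p of Slco1a4 rose above 0.05 when any of 9 samples was left out: control female 2, control male 2, 4 or 5, nPM female 4 or 5, or nPM male 1, 4 or 5 (highest 0.082).

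Mfsd2a had the largest difference below 0 after nPM, in females. Mfsd2a was measured at 16.9, 17.6, 19.7, 24.7 and 30.9 CPM in the control females and at 13.5, 14.8, 16.7, 19.2 and 19.5 CPM in the nPM females. The male controls were at 11.7, 11.7, 11.9, 16.6 and 18.5 CPM and the nPM males at 10.6, 14.6, 14.9, 15.7 and 16.5 CPM. In control females 3 samples lay above all nPM females, 1 of them narrowly, and the other 2 lay among them. The log2 change in females was -0.35 (SE 0.17, 95% confidence interval -0.73 to 0.026, p = 0.065), and the exact permutation p was 0.087. The gene passed p under 0.05 with edgeR (0.048), with DESeq2 (0.037) and in 1 fit of all 4 groups (0.047), and in each of these the change was below 0 (-0.38, -0.38 and -0.37). In males it was 0.054 (SE 0.16). With a sample left out, the change in females ranged from -0.44 to -0.23.

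Slc2a1 averaged 62.7 ± 7.42 CPM in the control females and 57.8 ± 14.9 CPM in the nPM females, and 45.0 ± 11.2 and 47.0 ± 7.998 CPM in the males of these groups (SD, n = 5 each). The log2 change of this glucose transporter after nPM was -0.13 in females (SE 0.16) and 0.074 in males (SE 0.17). Abcb1a averaged 36.3 ± 1.74 CPM in the control females and 37.5 ± 7.44 CPM in the nPM females, and 27.2 ± 2.96 and 26.9 ± 2.11 CPM in the males of these groups (SD, n = 5 each). The changes of the pump were 0.040 in females (SE 0.12) and -0.011 in males (SE 0.087), so that the 95% confidence intervals held changes from -0.22 to 0.30 in females and from -0.20 to 0.18 in males. These intervals show how large a change the data could have missed, and a p above the threshold does not show that nPM had no effect.

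**Figure D2:**
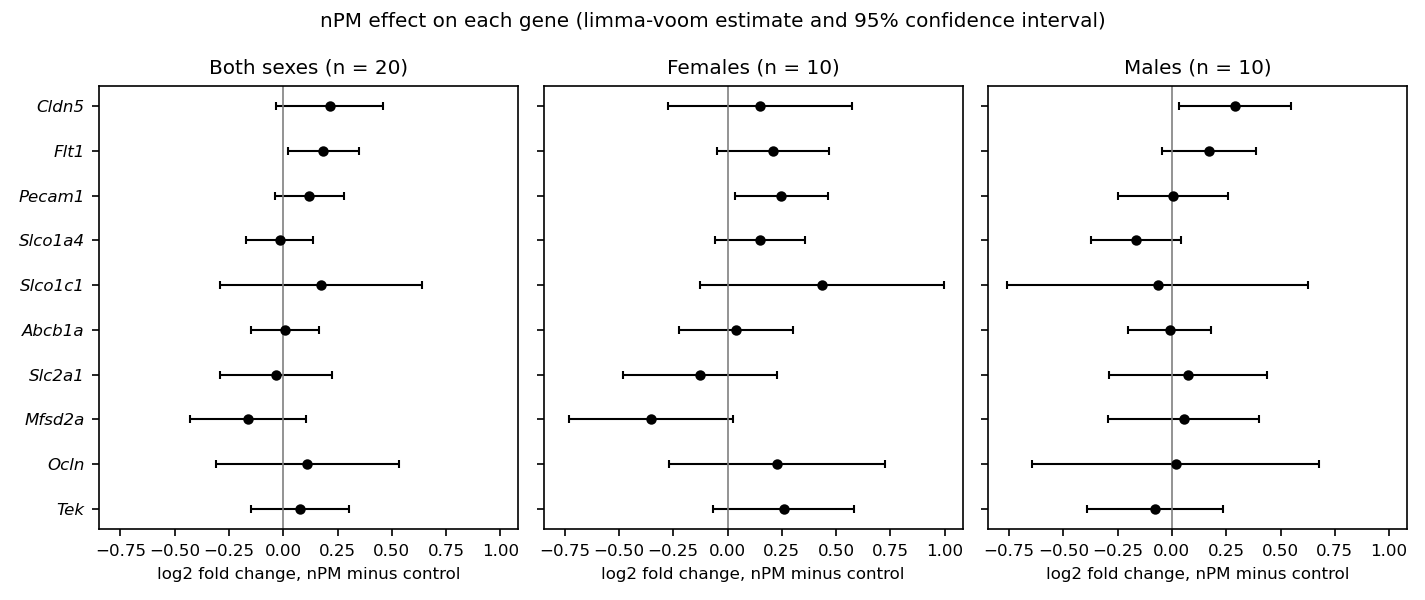
log2 fold change of each gene, nPM minus control (x axis), from limma-voom with its 95% confidence interval, for both sexes, females and males. The interval leaves out 0 for Flt1 in both sexes together, Pecam1 in females and Cldn5 in males, and is widest for Slco1c1 and Ocln.

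Other genes of the barrier were taken from lists of its pathways. No gene of any of these lists passed p under 0.005 after nPM, with both sexes, in females or in males. Over all genes, 2.1% passed p under 0.05 with both sexes, 1.99% in females and 4.28% in males. The counts below are to be read against these shares. Of 12 further junction genes, 9 were higher and 3 lower with both sexes, with a median of 0.059. Their median was 0.27 in females and -0.089 in males, and 0 passed p under 0.05 in either sex. The medians of other lists had the same signs: 0.96 in females and -0.33 in males for the choroid plexus markers, 0.56 and -0.31 for the fibroblast markers and 0.28 and -0.30 for the smooth muscle markers. The 0.96 does not describe the typical nPM female. The summed choroid plexus markers had a median of 328.5 CPM in nPM females (273 to 13470) and 661.4 CPM in control females. The part of these 3 lists in the junction genes was not tested. Of 12 solute carriers of brain endothelium 1 passed p under 0.05, the lactate transporter Slc16a1 in females (0.25, SE 0.11). Of 6 efflux pumps 0 passed. Of 9 genes of receptor-mediated vesicle transport and caveolae 1 passed, Cav2 in males (-0.27, SE 0.12). Of 15 genes of VEGF, angiopoietin and Notch signaling, 13 were higher with both sexes and 1, Kdr, passed p under 0.05. Kdr passed in females too (0.36, SE 0.16). Of 13 genes of Wnt and Norrin signaling and of 12 endothelial transcription factors, 0 passed in these 3 comparisons. Of 18 pan-endothelial surface genes 2 passed, both in females: the adhesion molecules Vcam1 (0.60, SE 0.26) and Icam1 (0.63, SE 0.27). Of 10 pericyte markers 0 passed. For each list in each of these comparisons, the smallest adjusted p was at least 0.96.

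Slco1c1 and Ocln had the highest coefficients of variation over the 20 samples (40.7% and 34.3%). Slco1c1 was measured at 37.9, 44.1, 53.4, 58.2 and 62.7 CPM in the control females and at 47.3, 49.3, 52.8, 82.5 and 131 CPM in the nPM females. Control males had 37.3, 38.7, 62.7, 90.6 and 101 CPM and nPM males 43.3, 44.8, 47.1, 75.1 and 99.4 CPM. Within each of the nPM females, control males and nPM males, 2 of the 5 samples stood above the rest. Ocln was measured at 13.0, 14.9, 18.9, 19.3 and 19.4 CPM in the control females and at 12.7, 17.2, 18.1, 20.3 and 34.5 CPM in the nPM females. For males the values were 11.4, 12.4, 19.6, 26.8 and 30.1 CPM in controls and 12.5, 16.5, 18.4, 22.7 and 32.0 CPM after nPM. Of the samples high in Slco1c1, nPM female 1, control males 2 and 4, and nPM males 2 and 3 were high in Ocln too. The exception was nPM female 5, at 82.5 CPM in Slco1c1. In Ocln it had 20.3 CPM, beside 18.1 CPM in nPM female 4. The log2 changes after nPM were 0.43 in females (SE 0.26, exact permutation p = 0.26) and -0.066 in males (SE 0.32) for Slco1c1, and 0.23 (SE 0.23) and 0.018 (SE 0.30) for Ocln.

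The markers of choroid plexus epithelium were high in the samples that stood out in Slco1c1. The level of Ttr, transthyretin, a major product of that epithelium, ran from 10.7 CPM in control male 3 to 7409 CPM in nPM female 1. Among females it was 13.9 to 430 CPM in controls and 23.2 to 7409 CPM after nPM, and among males 10.7 to 6587 CPM in controls and 36.5 to 4973 CPM after nPM. With the mean log2 CPM of the 8 markers as the choroid plexus level, Slco1c1 had r = 0.92 and rho = 0.86 over the 20 samples (adjusted permutation p = 0.00018 and 0.00028 over 55 relations). The r of Slco1c1 was 0.95 in females and 0.95 in males, and 0.89 without the 2 samples farthest from the median. Ocln had r = 0.89 and rho = 0.90 (adjusted permutation p = 0.00018 and 0.00028), with 0.82 in females, 0.97 in males and 0.84 without the 2 farthest samples. The unadjusted p of both r values was 1e-05, the smallest that 100000 permutations can give. Slc2a1 had r = 0.35 over all samples (rho = 0.26, adjusted permutation p of r = 0.32), with 0.91 in males, 0.36 in females and 0.20 without the 2 farthest samples. With the group means taken off, the r of Slc2a1 was 0.69. The other 7 genes had r between -0.27 and 0.10, with an adjusted permutation p of r of at least 0.43. Among these 7, Slco1a4 had r = 0.68 in males and 0.068 in females, and 0.42 with the group means taken off. The levels set against each other came from the same libraries and share their depth and scaling.

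**Figure D3:**
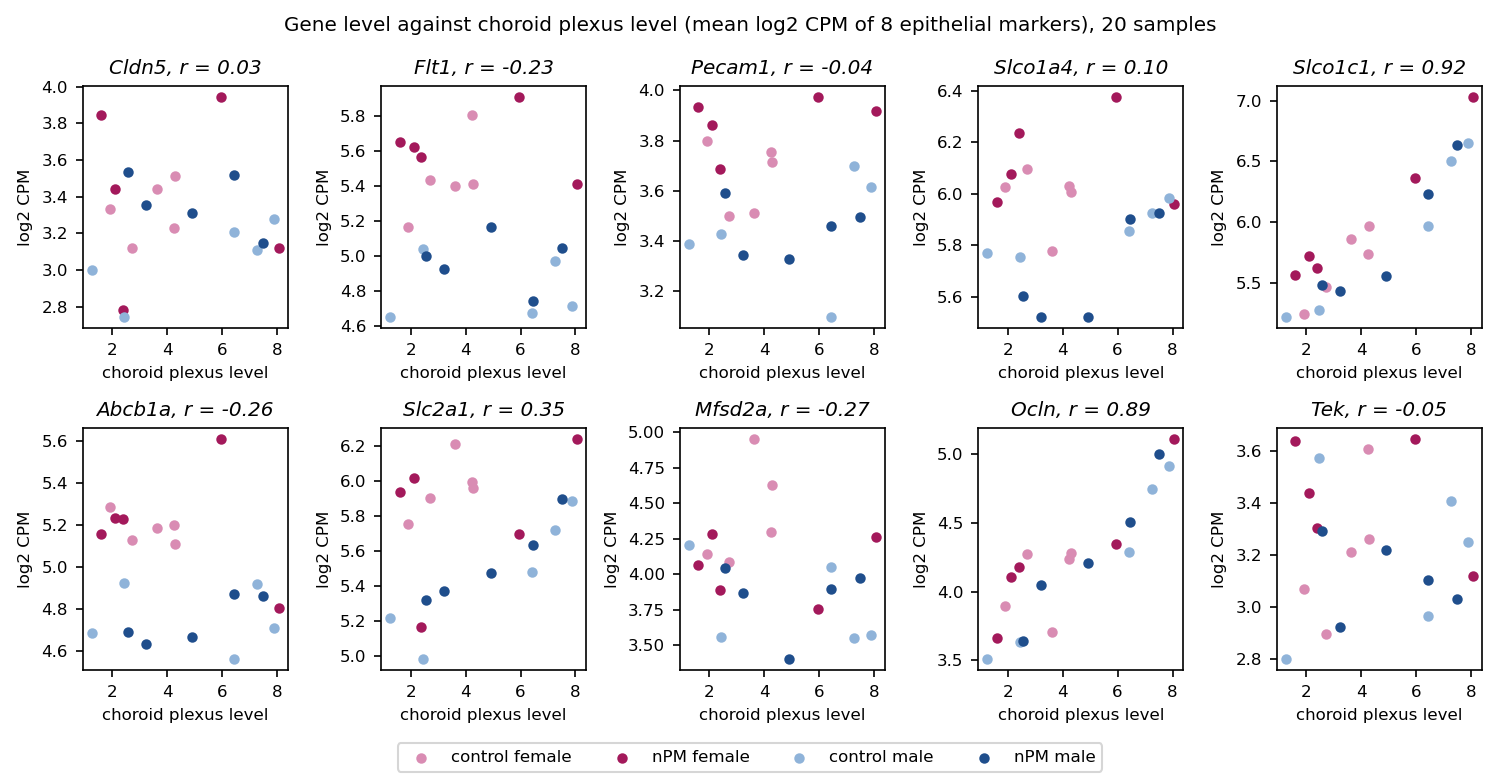
Level of each gene (y axis, log2 CPM) against the choroid plexus level (x axis, mean log2 CPM of 8 epithelial markers) in the 20 samples, colored by group, with Pearson's r above each panel. Slco1c1 (r = 0.92) and Ocln (r = 0.89) rise with the choroid plexus level, and Slc2a1 rises with it in males.

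With the choroid plexus level as a covariate, an alternative chosen after seeing the data, the nPM change of Slco1c1 in females was 0.27, which passed p under 0.05 in limma-voom, and that of Ocln was 0.088, which did not. The count of genes at p under 0.005 after nPM was again 0 of 10 with both sexes, in females and in males. In males the changes were -0.020 for Slco1c1 and 0.11 for Ocln, and neither passed p under 0.05. Flt1 with both sexes (0.18), Cldn5 in males (0.29) and Pecam1 in females (0.23) passed p under 0.05 as they did without the covariate.

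Over the 20 samples, 36 of the 45 pairs among the 10 genes had a positive r, with a median of 0.32, and 9 pairs had an adjusted permutation p under 0.05. These were the pairs of Flt1 with Abcb1a (r = 0.83, rho = 0.79), Pecam1 (0.73, 0.74), Tek (0.62, 0.59) and Slco1a4 (0.59, 0.68), of Pecam1 with Abcb1a (0.71, 0.73), Slco1a4 (0.65, 0.72) and Tek (0.61, 0.63), of Slco1a4 with Abcb1a (0.78, 0.78), and of Slco1c1 with Ocln (0.89, 0.88). Their adjusted permutation p of r ran from 0.00018 to 0.027, and r without the 2 farthest samples from 0.46 to 0.83. Of the 10 genes, 6 also differed between the sexes at p under 0.005, beside 31.1% of all genes tested. After each value had its group mean taken off, 29 of 45 pairs were positive, with a median r of 0.10, and 7 pairs were over 0.5. Of the 9 pairs above, Slco1c1 with Ocln (0.89), Flt1 with Tek (0.76) and Slco1a4 with Abcb1a (0.59) were among the 7. The others were Slco1c1 with Slc2a1 (0.77), Slc2a1 with Ocln (0.64), Abcb1a with Tek (0.53) and Slco1a4 with Ocln (0.51). Slco1c1 with Slc2a1 was 0.94 in males and 0.37 in females, Slc2a1 with Ocln 0.95 and 0.14, and Slco1a4 with Ocln 0.65 and 0.24. Flt1 with Tek was 0.84 in females and 0.53 in males. The r of Flt1 with Pecam1 dropped from 0.73 to 0.20 once the group means were taken off. Mfsd2a had a negative r with 6 of the other 9 genes, the lowest with Flt1 (-0.41) and Abcb1a (-0.40). The 10 genes thus did not move as 1 unit from sample to sample.

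**Figure D4:**
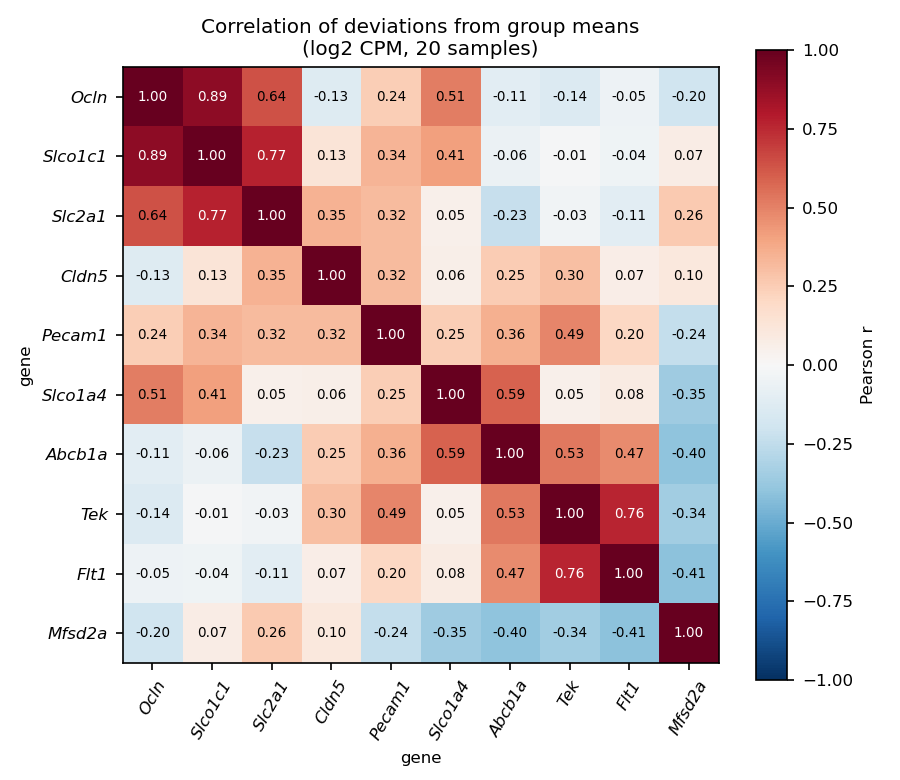
Pearson's r (color and number) between each pair of genes over 20 samples, from log2 CPM with the group means taken off. Ocln, Slco1c1 and Slc2a1 form one block (0.64 to 0.89; the pairs of Slc2a1 with the other two reach 0.94 and 0.95 in males against 0.37 and 0.14 in females), Flt1, Tek and Abcb1a another (0.47 to 0.76), and Mfsd2a is negative with Flt1, Abcb1a, Slco1a4 and Tek.

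The genes most like each of the 10 were taken by r of the same deviations, as the highest among all genes tested and so as a description only. For Slco1c1 these were Sgms2, Slc31a1 and Steap1 (r = 0.98, 0.97 and 0.97), and for Ocln they were Csrp2, Stard13 and Kif27 (0.96, 0.95 and 0.95). For Abcb1a they were Cyp2f2, Adgrl4 and Tfpi (0.83, 0.79 and 0.74), and for Tek they were Mob2, Surf6 and Nes (0.87, 0.80 and 0.78). For Cldn5 they were Sfxn5, Apln and Fam98c (0.91, 0.88 and 0.88), and for Slc2a1 they were Bcl2l1, Eef2kmt and Saysd1 (0.92, 0.92 and 0.91). The 12 genes outside the 10 that were most like the mean of all 10 were Itga10, Tgtp2, Slc52a3, Parp9, Ankrd54, Nos3, Dmpk, Traf2, Rhbdd1, Slc38a3, Gmpr2 and Heatr5a, with r from 0.83 down to 0.78. Of these, Nos3 encodes the endothelial nitric oxide synthase and Slc38a3 a glutamine transporter.

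The last comparison set males against females, with exposure as a covariate. A large part of all genes differed: 31.1% passed p under 0.005, 48.4% passed p under 0.05 and 40.4% passed an adjusted p under 0.05. Of the 10 genes, 6 passed p under 0.005, and all 6 were lower in males, against 17.1% of all genes that passed in that direction. The same 6 passed an adjusted p under 0.05 (background 21.6% lower in males). The median log2 difference over the 10 genes was -0.30, beside 0.019 over all genes.

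The receptor Flt1 differed most. Its female samples ran from 35.85 to 59.95 CPM and its male samples from 25.1 to 35.8 CPM, so that the highest male sample came up to the lowest female one. The log2 difference, male minus female, was -0.64 (SE 0.079, 95% confidence interval -0.81 to -0.48, adjusted p = 7.6e-06), a 1.56-fold lower level. The exact permutation test over the samples gave p = 3.15e-05, the smallest it can give. The pump Abcb1a differed by -0.44 (SE 0.076, adjusted p = 0.00012), with 23.6 to 30.3 CPM in males and 27.9 to 48.8 CPM in females, among whom only nPM female 1 lay within the male range.

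Mfsd2a, also lower in males, differed by -0.43 on the log2 scale (SE 0.13, adjusted p = 0.012) and Slc2a1 by -0.39 (SE 0.12, adjusted p = 0.015), both with overlapping samples. Pecam1 differed by -0.33 (SE 0.076, adjusted p = 0.0016) and Slco1a4 by -0.28 (SE 0.074, adjusted p = 0.0050). Cldn5 (-0.17, SE 0.12, adjusted p = 0.28) and Tek (-0.16, SE 0.11, adjusted p = 0.25) did not pass. Slco1c1 (0.033, SE 0.22) and Ocln (0.068, SE 0.20) had the widest intervals, from -0.43 to 0.50 and from -0.35 to 0.49. Flt1, Abcb1a, Pecam1 and Slco1a4 passed p under 0.005 in all 20 fits that left out a sample. Mfsd2a passed in 12 of 20, and missed without control female 2 or 4, control male 1, 2 or 4, nPM female 1 or 2 or nPM male 5 (highest value 0.0089). Slc2a1 passed in 5 of 20, those without control male 2 or 4, nPM female 4 or 5 or nPM male 3, and missed in the other 15 (highest value 0.012). Both genes passed p under 0.05 in all 20 of these fits.

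**Figure D5:**
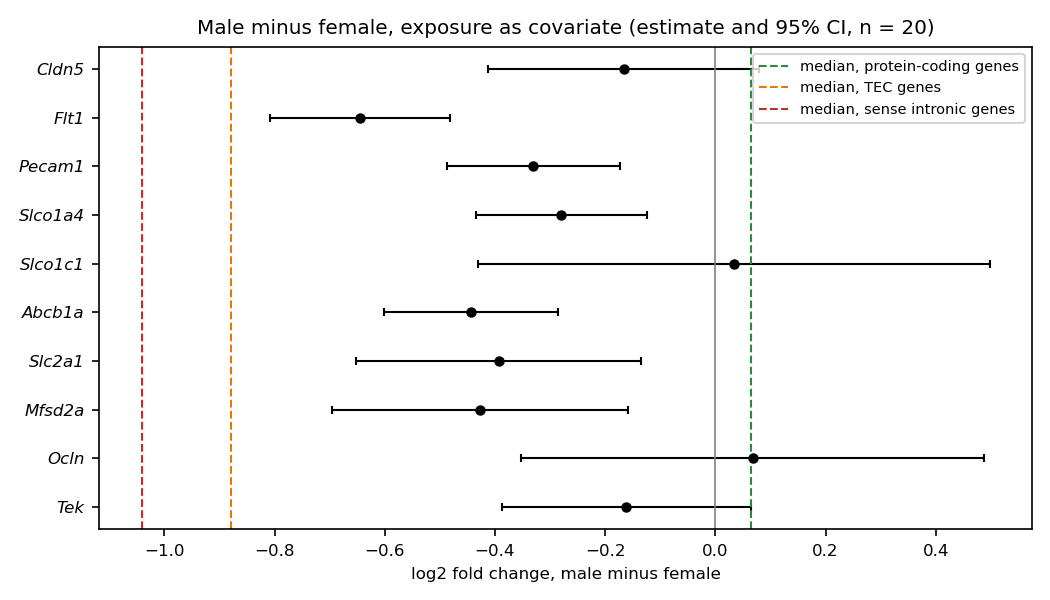
log2 fold change, male minus female, of each gene (points, with 95% confidence intervals) beside the medians of protein-coding, TEC and sense intronic genes (dashed lines). The 6 genes whose intervals lie below 0 are Flt1, Pecam1, Slco1a4, Abcb1a, Slc2a1 and Mfsd2a.

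Other measures moved with sex too. The median of 15007 protein-coding genes was 0.065, while that of 1325 TEC genes (a Gencode class of mostly unspliced transcripts) was -0.88 and that of 186 sense intronic genes was -1.04. The share of counts on these 2 classes was 0.516 to 0.946% in females and 0.297 to 0.522% in males. With this share as a covariate, added after seeing the data, 5 of the 10 genes were lower in males at p under 0.005 where 10.3% of all genes passed in either direction. Flt1 was then at -0.52, Abcb1a at -0.40, Pecam1 at -0.51, Slc2a1 at -0.71 and Mfsd2a at -0.62, while Slco1a4 (-0.24) did not pass. The choroid plexus level had a median of 3.63 in control females and 2.39 in nPM females, against 6.43 in control males and 4.92 in nPM males. With it as a covariate Slco1c1 turned from 0.033 to -0.27 and passed p under 0.005, and Ocln turned from 0.068 to -0.17 and did not. Mfsd2a then missed the threshold (-0.41), so that 6 of the 10 again passed, beside 31.1% of all genes. Their part in the sex difference was not tested further.

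The other lists did not all go the same way. Over all genes, 21.6% were lower and 18.8% higher in males at an adjusted p under 0.05, and the counts are to be read against these shares. Of 15 genes of VEGF, angiopoietin and Notch signaling, 7 were lower and 2 higher in males at an adjusted p under 0.05, led by the VEGF receptor 3 Flt4 (-1.11, SE 0.13), the TGF-beta co-receptor Eng (-0.74, SE 0.13) and the vascular phosphatase Ptprb (-0.48, SE 0.086). Of 18 pan-endothelial surface genes 5 were lower and 0 higher, among them Adgrf5 (-0.50, SE 0.061), Adgrl4 (-0.40, SE 0.085) and Pglyrp1 (-0.78, SE 0.17). Of 12 further junction genes 2 were lower, Esam (-0.62, SE 0.092) and the VE-cadherin gene Cdh5 (-0.54, SE 0.14), and 1 was higher, Cldn12 (0.36, SE 0.064). Of 12 solute carriers 4 were lower, among them the amino acid transporters Slc7a5 (-0.45, SE 0.093) and Slc7a1 (-0.25, SE 0.051), and 1 was higher, Slc16a1 (0.36, SE 0.069). Of 6 efflux pumps 2 were lower, Abcc5 (-0.23, SE 0.052) and Abcc4 (-0.47, SE 0.17). Of 9 genes of vesicle transport, the caveolae genes Cav2 (0.73, SE 0.11) and Cav1 (0.42, SE 0.093) were higher and 2 were lower, among them the insulin receptor Insr (-0.21, SE 0.047). Of 13 genes of Wnt and Norrin signaling 4 were higher, among them Ctnnb1 (0.30, SE 0.044) and Tspan12 (0.41, SE 0.077), and 2 were lower, among them Reck (-0.48, SE 0.099). Of 12 endothelial transcription factors 2 were lower, Sox17 (-0.52, SE 0.19) and Erg (-0.25, SE 0.093). The lower counts of the junction genes and the transcription factors were thus under the share over all genes.

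Markers of the cells around the vessels were counted in the same way, beside the same shares of all genes (21.6% lower and 18.8% higher). Of 10 pericyte markers 4 were lower in males, among them Notch3 (-0.44, SE 0.16), Atp13a5 (-0.35, SE 0.13) and Abcc9 (-0.21, SE 0.067), and 0 were higher. Of 8 astrocyte markers 4 were higher and 1 lower, with Aqp4, the water channel of the end feet, at 0.44 (SE 0.10). Of 8 microglia and macrophage markers 4 were higher and 0 lower, among them P2ry12 (0.50, SE 0.073). Of 8 neuron markers 1 was higher and 1 lower. Of 5 smooth muscle, 8 fibroblast, 8 choroid plexus and 3 red blood cell markers tested 0 passed an adjusted p under 0.05 in limma-voom. At an unadjusted p under 0.05, 1, 2, 0 and 3 of them passed. The part of these cells in the differences of the 10 genes was not tested.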

How the data were processed

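The authors depleted ribosomal RNA, sequenced total RNA of hippocampus, used HISAT2 to align the reads to mm10 and featureCounts 1.5.0-p3 to count those on each gene of Gencode M11. The deposited counts are whole numbers for 48709 genes in 20 samples, without normalization; 0 sample columns were left unmapped. The deposited table also gives the authors' mean RPKM of each gene, which the counts gave back within 4.9e-11 and which was used in no test. The strand setting and the treatment of reads with several alignments are not given in the sources used here.

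Groups came from the labels. The filter filterByExpr, given the 4 groups (minimum count 10, minimum total 15), left 19797 genes. limma-voom (limma 3.58.1, edgeR 4.0.16, R 4.3.3; offset 0.5 counts, TMM factors within the samples of each fit) was fitted to exposure with sex as a covariate, to exposure in each sex, to the interaction, and to sex with exposure as a covariate. The thresholds were p under 0.005, as in the study, p under 0.05 and a Benjamini-Hochberg adjusted p under 0.05. CPM and RPKM in the text use TMM factors over all 20 samples. Single genes were also compared by two-sided exact permutation tests over the samples, within sex or within exposure. With 5 against 5 samples the smallest p is 0.0079. Correlations used 100000 permutations. Each fit was first tested on simulated counts with known changes.

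Alternatives were the edgeR quasi-likelihood test, DESeq2 1.42.0, RLE normalization, no filter, a replicate block, age as a covariate, 1 fit of the 4 groups, each sample left out, and 2 covariates added after seeing the data. Pairs of samples of the same group differed by 13.5 to 73.7 times the counting noise, so none was counted as a repeat. Precision was limited more by this spread than by depth.

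The 10 genes and the lists of other genes, written from general knowledge, were chosen with earlier results of these data known. The named genes are the 10, up to 3 of each list with the smallest p under 0.05 in each comparison, and the 12 most like their mean; Ttr, and the 3 genes most like single members, were named in addition. Some genes of the lists are not reported here.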

Additional observations from a re-analysis of the deposited data

Results flagged for a closer look

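In control females, control female 2 was lowest in Slco1a4 at 54.8 CPM, farther from the other 4 (64.3 to 68.4 CPM) than the critical gap for a group of 5. In nPM males, nPM male 5 was lowest in Mfsd2a at 10.6 CPM, apart from the other 4 (14.6 to 16.5 CPM) by the same measure. Of 40 sets of 5 samples tested, these 2 stood out, and chance alone gives about 1 in 20. The nPM change of Slco1a4 in males was lower than that in females by a log2 difference of -0.30 in the interaction test of limma-voom (under 0.05 before adjustment, adjusted p = 0.99).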

How the results depend on the processing

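The count of genes among the 10 at p under 0.005 was 0 in the 3 nPM comparisons and in the interaction under every alternative run, including each sample left out. Between the sexes it was 6 with edgeR (31% of all genes passed), DESeq2 (34%), RLE (30.9%) and the choroid plexus covariate (31.1%). It was 5 without a filter (19.2%) or with the covariate of TEC and sense intronic counts (10.3%). With the replicate block it was 4 (29.5%), and with a sample left out 4 to 6. Over all genes, counts at p under 0.005 moved by over 1.5 times: with DESeq2 to 44 (both sexes, from 28), 122 (males, from 41), 82 (females, from 18) and 127 (interaction, from 43), with edgeR to 66 (interaction), and without a filter to 71, 130, 87 and 149 in that order. With the choroid plexus covariate the count in males was 73, and with the covariate of TEC and sense intronic counts that between the sexes was 2031, from 6147. With a sample left out the count over all genes ran from 17 to 47 with both sexes, from 25 to 79 in males, from 10 to 49 in females, from 27 to 81 for the interaction and from 5509 to 6446 between the sexes.

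Control and nPM samples of the same number and sex had deviations correlated by -0.36 to 0.16 in 10 pairs, 3 of them over 0.1. These values gave no sign of pairing by number. Samples of different numbers, and males with females, were not compared in this way, so that pairing could not be decided. With the replicate block Slc2a1 (-0.39) and Mfsd2a (-0.43) missed the threshold between the sexes, and the block changed no other call of the 10 genes at p under 0.005. At p under 0.05 the block lost Cldn5 in males, Pecam1 in females and Slco1a4 in the interaction, and added Flt1 in females (0.20).

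Pecam1 in males was -0.011 with edgeR, -0.014 with DESeq2 and -0.011 with the replicate block. Ocln turned to 0.058 in the interaction and -0.17 between the sexes with the choroid plexus covariate, and to -0.088 between the sexes with the covariate of TEC and sense intronic counts. Slco1c1 between the sexes was -0.27 and -0.42 with these covariates. With a sample left out, signs turned for Abcb1a (-0.048 to 0.054), Slc2a1 (-0.092 to 0.044) and Slco1a4 (-0.058 to 0.013) with both sexes. They turned for Abcb1a (-0.068 to 0.14), Ocln (-0.010 to 0.40) and Slc2a1 (-0.25 to 0.025) in females. In males they turned for Abcb1a (-0.063 to 0.028), Mfsd2a (-0.015 to 0.15), Ocln (-0.17 to 0.21), Pecam1 (-0.092 to 0.055), Slc2a1 (-0.042 to 0.18), Slco1c1 (-0.27 to 0.12) and Tek (-0.17 to 0.0038). For the interaction they turned for Abcb1a (-0.16 to 0.057), Flt1 (-0.11 to 0.030) and Ocln (-0.39 to 0.029), and between the sexes for Ocln (-0.023 to 0.19) and Slco1c1 (-0.067 to 0.17). The cause of these changes was not tested. With 5 samples a group and 125 or more counts per value, the spread between samples limits these results.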

Other observations

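Markers of perivascular and meningeal fibroblasts, cells that lie along the larger vessels, had opposite signs in the sexes after nPM. All 8 were higher in females (median log2 change 0.56) and all 8 lower in males (median -0.31), with 0 of 8 at p under 0.005 in limma-voom in either sex. At p under 0.05, 1 passed in females, Lum (1.001, SE 0.44), and Lum passed for the interaction (-1.45, SE 0.64). Their summed level was 44.7 to 121 CPM in control females, 34.7 to 230.0 in nPM females, 37.2 to 272 in control males and 67.6 to 204 in nPM males, so that the groups overlapped. The 5 smooth muscle markers tested were also all higher in females (median 0.28) and all lower in males (median -0.30), with 0 at p under 0.05 in either sex. The choroid plexus markers had medians of 0.96 in females and -0.33 in males, with 0 at p under 0.05. Their summed level nevertheless had a lower median in nPM females (328.5 CPM, range 273 to 13470) than in control females (661.4 CPM). In males the medians were 1538 CPM after nPM and 4700 CPM in controls. Among the microglia and macrophage markers, P2ry12 (-0.30, SE 0.13) and Mrc1 (-0.90, SE 0.41) passed p under 0.05 for the interaction. Among the lists of the barrier, the interaction passed p under 0.05 for the junction gene Marveld2 (-0.97, SE 0.42) and the adhesion molecule Vcam1 (-0.84, SE 0.39). Mrc1 (-0.61, SE 0.23) also passed p under 0.05 in males, and the astrocyte gap junction gene Gjb6 (-0.18, SE 0.074) with both sexes. Over all genes, p under 0.05 was passed by 2.1% with both sexes, 1.99% in females, 4.28% in males and 3.79% for the interaction. No adjusted p in this paragraph was under 0.96.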
